A study of Homo sapiens with 27 samples.

Results

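The sterol regulatory element-binding proteins (SREBPs), the proteins that carry and restrain them, and the liver X receptors (LXRs) are the main transcriptional regulators of cholesterol and fatty acid metabolism. The 10 genes described here were chosen by name, with earlier results of these data known. SREBF1 and SREBF2 encode the SREBPs, and SCAP, INSIG1, INSIG2 and MBTPS1 control their processing. NR1H2 and NR1H3 are the LXR genes, MYLIP is an LXR target, and MLXIPL encodes the carbohydrate response factor ChREBP. The 10 genes are 10 of 60619 rows of a gene-level table of estimated RNA-Seq counts. All 10 passed the filter on low counts in every fit.

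Invasive lobular breast carcinoma (ILC) cells of the estrogen receptor-positive lines MM134 (MDA-MB-134VI) and SUM44 were compared with long-term estrogen-deprived (LTED) variants of the same lines, which grow without estrogen and model resistance to aromatase inhibitors. The MM134 groups are the parental cells and 4 variants named LTED-A, -B, -D and -E. The SUM44 groups are SUM44PE parental cells, SUM44F parental cells, and the variants LTED-A and LTED-B. SUM44F cells are SUM44PE cells that were moved to the serum-containing medium used for MM134 cells, and they were the parental cells of the SUM44 variants. Each variant emerged as an estrogen-independent clone during prolonged culture in charcoal-stripped serum and was kept in it, so each stands for a single derivation. The parental cells of every group were deprived of hormone for 3 days before collection, and no other agent was given. Charcoal stripping also removes lipids from serum, so long culture without estrogen and long culture in lipid-poor serum cannot be told apart here. Each group has 3 libraries from wells of 1 culture, so the tests speak for the spread between wells.

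SREBPs are made as precursors in the membrane of the endoplasmic reticulum. SCAP escorts them to the Golgi when sterols are low, where the site-1 protease (MBTPS1) and the site-2 protease (MBTPS2) release the active factor, while INSIG1 and INSIG2 hold SCAP back when sterols are high. SREBF1 favours genes of fatty acid synthesis and SREBF2 those of cholesterol synthesis and uptake, and INSIG1 and SREBF2 are themselves SREBP targets. LXRs are activated by oxysterols, pair with retinoid X receptors, and switch on cholesterol efflux genes, SREBF1 and MYLIP, a ubiquitin ligase (IDOL) that marks lipoprotein receptors for degradation.

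Luminal markers were high in every library, with 4378 to 8458 CPM (counts scaled to a common library size) summed over 7 genes, and CDH1, the adhesion gene lost in lobular carcinoma, lay between 8.36 and 24.6 CPM. The T and B cell markers CD3E and MS4A1, the endothelial marker CDH5 and the adipocyte marker LEP were below 1 CPM in every library, and of the lists of 7 immune, 3 endothelial and 3 adipocyte markers the highest values were 10.3 CPM for LYZ, 27.3 CPM for PECAM1 in SUM44F and 7.08 CPM for PLIN1. SUM44F replicate 1 stood apart in its fibroblast markers, for which no cause was tested. Its 6 fibroblast markers summed to 361 CPM, with COL3A1 at 135 CPM and LUM at 57.2 CPM, while the other SUM44F replicates summed to 9.47 and 8.40 CPM and the remaining libraries to between 5.03 and 36.0 CPM. To a smaller extent MM134 parental replicate 3 (COL3A1 5.54 and LUM 2.79 CPM) and MM134 LTED-D replicate 2 (COL3A1 5.22 and LUM 2.27 CPM) also stood apart from the other wells of their groups, in which COL3A1 was at or below 0.114 CPM and LUM at 0. Leaving out either changed no call of the 10 genes in the MM134 LTED comparisons with the parental cells. The comparisons that rest on SUM44F were also fitted without SUM44F replicate 1, and are given so where a call changed. SUM44 LTED-A replicates 2 and 3 differed by less than sampling noise (chi-square per degree of freedom 0.3124, against 2.346 to 58.15 for 26 other replicate pairs) and were counted as 1 sample, which leaves n = 2 for that group and 26 samples in all. By the same measure SUM44F replicate 3 stood apart from replicates 1 (42.78) and 2 (39.17), which differed by 14.13. It was the deepest SUM44F library, at 76250461 counts. Among the SUM44F wells it was lowest for SREBF1, SREBF2, SCAP and NR1H3, among others, and highest for INSIG2 and MLXIPL. Library totals ran from 28583554 to 134882175 counts, with a median of 44018412.

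The promoters of the genes that carry most of the results are shown, as the 250 bases before the RefSeq gene start on GRCh38.p14, 5′ to 3′ on the strand of the gene. They are SREBF1 (chr17:17836987-17837236, minus strand), SREBF2 (chr22:41832855-41833104, plus strand), INSIG1 (chr7:155297628-155297877, plus strand) and MYLIP (chr6:16128836-16129085, plus strand). Capitals mark matches to a sterol regulatory element (SRE), an E-box or a CCAAT box on either strand.
SREBF1: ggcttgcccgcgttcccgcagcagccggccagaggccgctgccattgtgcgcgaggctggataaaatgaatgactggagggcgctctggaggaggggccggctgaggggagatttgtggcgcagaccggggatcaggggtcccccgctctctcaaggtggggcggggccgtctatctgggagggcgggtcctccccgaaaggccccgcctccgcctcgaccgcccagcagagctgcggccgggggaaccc
SREBF2: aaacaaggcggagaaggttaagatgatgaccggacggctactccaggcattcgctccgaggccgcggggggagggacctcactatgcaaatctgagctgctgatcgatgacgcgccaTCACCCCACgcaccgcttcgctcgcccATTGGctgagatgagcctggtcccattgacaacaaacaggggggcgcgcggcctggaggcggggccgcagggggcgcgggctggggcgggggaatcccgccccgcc
INSIG1: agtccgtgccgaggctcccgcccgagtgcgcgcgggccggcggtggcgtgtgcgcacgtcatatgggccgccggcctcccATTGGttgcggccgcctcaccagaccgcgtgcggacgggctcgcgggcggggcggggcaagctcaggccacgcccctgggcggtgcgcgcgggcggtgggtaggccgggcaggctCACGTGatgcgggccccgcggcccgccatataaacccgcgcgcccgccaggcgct
MYLIP: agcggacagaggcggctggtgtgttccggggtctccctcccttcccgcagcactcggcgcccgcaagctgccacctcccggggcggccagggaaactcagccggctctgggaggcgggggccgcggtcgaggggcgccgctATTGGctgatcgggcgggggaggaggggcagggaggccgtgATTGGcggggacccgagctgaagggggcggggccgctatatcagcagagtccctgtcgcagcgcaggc

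A total of 5 motifs were searched on both strands of the windows of all 10 genes: the SRE TCACNCCAC, the E-box CACGTG, the CCAAT box, the GC box GGGCGG and the nuclear receptor half-site AGGTCA. The SREBF2 window held the SRE TCACCCCAC, 133 to 125 bases before the start, and a CCAAT box on the other strand 106 to 102 bases before it. An SRE of this form occurred in 0.883% of 35114 RefSeq windows of the same length, and SREBF2 was the only member with a match. INSIG1 held an E-box 55 to 50 bases before its start and a CCAAT box 170 to 166 bases before it, and SCAP held an E-box 58 to 53 bases before its start, a motif found in 6.35% of windows. MYLIP held CCAAT boxes 109 to 105 and 68 to 64 bases before its start, where 32% of windows hold at least 1. The half-site AGGTCA, found in 12.1% of windows, matched only NR1H3 among the members, 140 to 135 bases before the first of its 4 listed starts. The SREBF1 window held only GC boxes, which occur in 42.6% of windows and are not capitalised. No window before another start of SREBF1 was searched. These matches describe letters and not binding.

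Divided by the length of their merged exons, INSIG1 had the highest level of the 10 genes, with a mean over the 9 groups of 40.9 CPM per kb. SREBF1 followed at 23.2 CPM per kb, MYLIP at 17.6, SCAP at 17.1, and SREBF2 at 14.0. MBTPS1 lay at 9.13 CPM per kb, NR1H2 at 6.27, INSIG2 at 5.19, and NR1H3 at 3.51. MLXIPL was lowest at 0.474 CPM per kb and rested on 60 to 299 counts a library, while SREBF1 rested on 3328 to 31784. The range over groups was narrowest for MBTPS1, with a 1.41-fold difference between its lowest and highest group, and widest for NR1H3, with a 17.8-fold difference and every MM134 group below every SUM44 group. The order between genes depends on the length used: with the longest transcript in place of merged exons, SREBF1 was at 39.0 and MBTPS1 at 21.4 CPM per kb, above SREBF2 at 19.8 and MYLIP at 17.6.

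**Figure D1:**
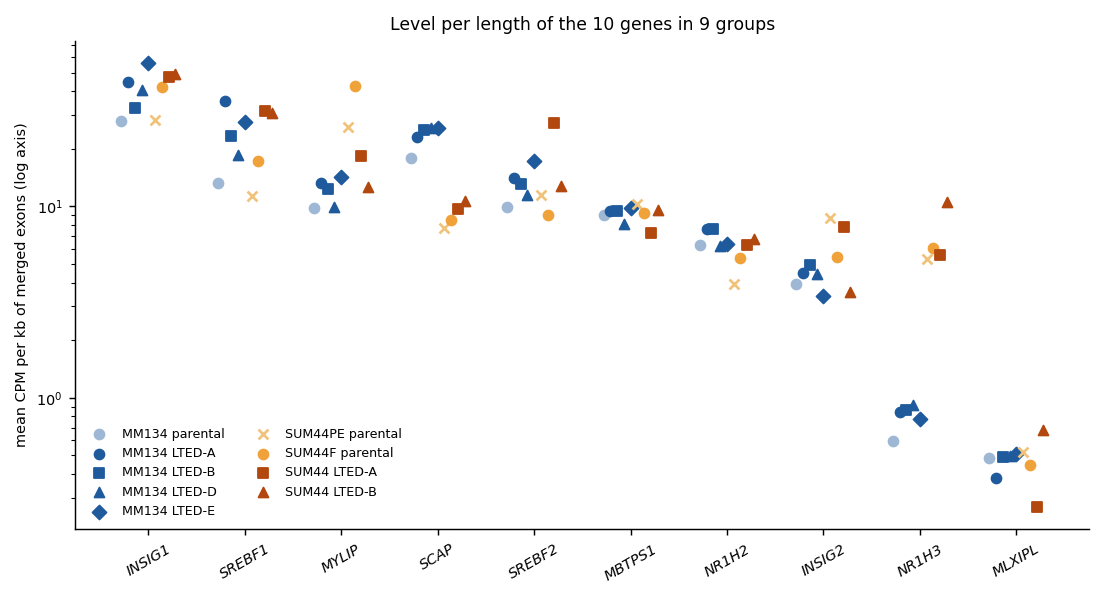
Mean level of each of the 10 genes in each of the 9 groups, in TMM-normalized CPM per kb of merged exons on a log axis, 1 symbol a group. INSIG1 has the highest mean and MLXIPL the lowest, MBTPS1 varies least between groups, and NR1H3 falls into an MM134 band below 1 and a SUM44 band above 5 CPM per kb.

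Each library of the 10 genes is shown in the plot of levels by sample. A gene was called differentially expressed (DE) with a fold change above 1.5 and an adjusted p under 0.001 in edgeR's quasi-likelihood test, adjusted over all genes tested, which are the thresholds of the study. A second rule asked only for an adjusted p under 0.05. In bulk RNA, a change in the share of cells that express a gene and a change in RNA per cell cannot be told apart.

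**Figure D2:**
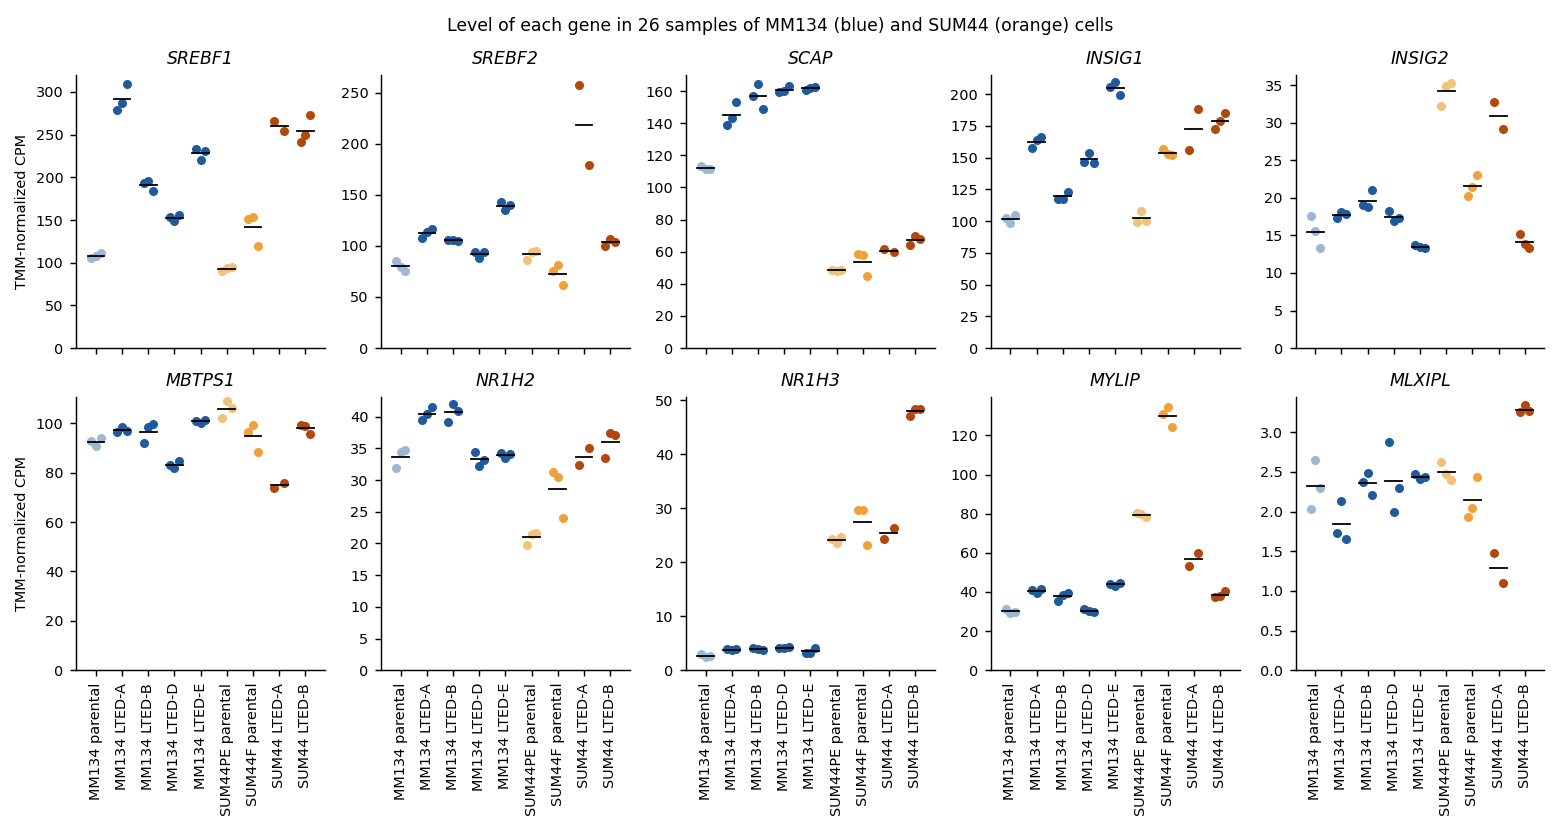
TMM-normalized CPM of each gene in each of the 26 samples, 1 point a sample and 1 bar a group mean, MM134 groups in blue and SUM44 groups in orange, lighter for parental cells. SREBF1 lies above the parental wells of its own line in every LTED well, and MYLIP lies below the SUM44F wells in both SUM44 variants.

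Against their parental cells, which the 4 MM134 comparisons share, MM134 variants had members that were DE upward and none that was DE downward. In MM134 LTED-A 2 of 10 were DE and higher, SREBF1 and INSIG1, where 10.5% of all genes tested were higher and 9.82% lower. In MM134 LTED-B 1 member was higher, SREBF1, where 8.11% of all genes were higher and 7.75% lower. In MM134 LTED-D 1 member was higher, NR1H3, against 9.63% of genes higher and 7.95% lower. In MM134 LTED-E 3 members were higher, SREBF1, SREBF2 and INSIG1, against 8.71% higher and 10.3% lower. Among 10 genes, the 1 higher member in LTED-B and in LTED-D and the lack of lower members are near these shares. By the second rule 9, 8, 7 and 8 of the 10 genes passed in variants A, B, D and E, where 53.2%, 48.4%, 51.4% and 51.0% of all genes passed. Their median log2 fold change was 0.40, 0.33, 0.20 and 0.47, beside -0.01, 0.02, -0.03 and 0.02 over all genes tested.

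In the SUM44 variants, which share the SUM44F libraries, members moved both ways. In SUM44 LTED-A SREBF1 and SREBF2 were DE and higher and MYLIP was DE and lower, where 6.39% of all genes were higher and 7.28% lower. SREBF1 and NR1H3 were higher in SUM44 LTED-B and INSIG2 and MYLIP were lower, where 8.69% of all genes were higher and 8.57% lower. By the second rule 6 and 9 of 10 passed, against 36.1% and 45.8% of all genes. The medians were 0.17 and 0.33, beside -0.06 and -0.09 over all genes tested, which include genes with low counts. Around the members, genes of at least 5 CPM had medians from -0.15 to 0.53 in LTED-A and from -0.26 to 0.24 in LTED-B. Most of these were above the medians over all genes. The members' median in LTED-A lies within that span and in LTED-B above it, and neither was tested. Without SUM44F replicate 1 the calls of members in both comparisons stayed at 2 higher and 1 lower for LTED-A and 2 higher and 2 lower for LTED-B.

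**Figure D3:**
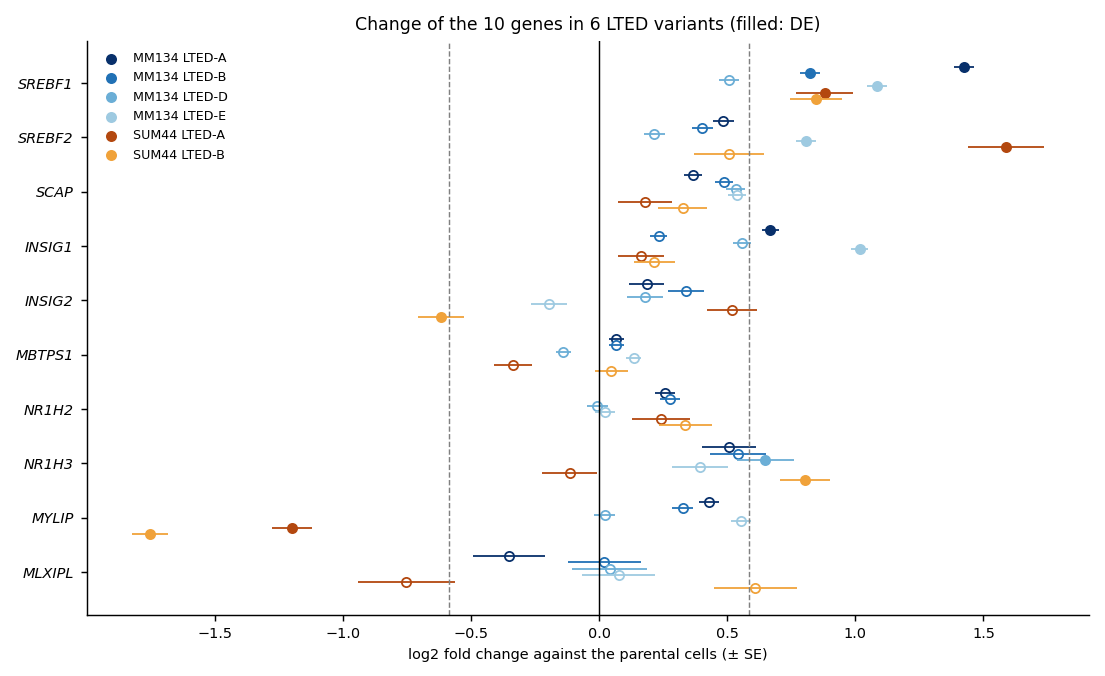
Log2 fold change against the parental cells, with its standard error, for each gene (rows) in the 6 LTED variants (colours); filled symbols are DE and dashed lines mark a fold change of 1.5 in each direction. SREBF1 is to the right of 0 in all 6 variants and filled in 5, and MYLIP is to the left and filled in the SUM44 variants only.

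SREBF1 (ENSG00000072310, chr17:17810399-17837002, minus strand) encodes SREBP1a and SREBP1c from separate starts, which gene-level counts do not separate. It was higher in all 6 variants and DE in 5 of them. In MM134 parental wells it was at 106, 108 and 112 CPM, in LTED-A at 279, 287 and 309, in LTED-B at 193, 196 and 184, in LTED-D at 153, 149 and 156, and in LTED-E at 234, 219.8 and 231. No MM134 LTED well overlapped the parental wells. The log2 fold change was 1.42 ± 0.038 (SE) in LTED-A, a 2.68-fold rise (adjusted p = 3.68e-16), 1.08 ± 0.038 in LTED-E (2.12-fold, adjusted p = 2.23e-14), and 0.82 ± 0.038 in LTED-B (1.77-fold, adjusted p = 1.93e-12). In LTED-D it was 0.51 ± 0.039, a fold change of 1.42 that is under the minimum of 1.5, with an adjusted p of 1.96e-09.

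In SUM44 cells SREBF1 was at 90.3, 94.3 and 94.9 CPM in SUM44PE wells and at 151, 154 and 119 in SUM44F wells, of which replicate 3 was lowest. It was at 266 and 254 CPM in LTED-A and at 241, 249.96 and 272 in LTED-B. The LTED wells did not overlap either parental group. The log2 fold change against SUM44F was 0.88 ± 0.11 in LTED-A (1.84-fold, adjusted p = 0.000132) and 0.85 ± 0.10 in LTED-B (1.80-fold, adjusted p = 6.91e-05), and without SUM44 LTED-A replicate 1, which leaves that arm with 1 sample, the LTED-A value of 0.89 had an adjusted p of 0.00163. Over the 9 groups the order ran from SUM44PE through MM134 parental, SUM44F, MM134 LTED-D, MM134 LTED-B, MM134 LTED-E, SUM44 LTED-B and SUM44 LTED-A to MM134 LTED-A. SUM44F and MM134 LTED-D overlapped in their wells, as did the SUM44 variants.

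SREBF2 (ENSG00000198911, chr22:41833105-41907306, plus strand), the SREBP of cholesterol synthesis with the SRE in the window above, passed the DE thresholds in MM134 LTED-E and SUM44 LTED-A. Its MM134 parental wells were at 85.0, 79.8 and 75.3 CPM, its LTED-A wells at 108, 114 and 116, its LTED-B wells at 106, 106 and 105, its LTED-D wells at 94.3, 87.8 and 94.4, and its LTED-E wells at 143, 135 and 139.7. All 12 MM134 LTED wells were above the parental ones. Its log2 fold change was 0.81 ± 0.040 in LTED-E (1.75-fold, adjusted p = 4.09e-12), 0.49 ± 0.040 in LTED-A (adjusted p = 5.73e-09), 0.40 ± 0.041 in LTED-B (adjusted p = 1.15e-07) and 0.22 ± 0.041 in LTED-D (adjusted p = 0.0002), the last 3 under the minimum fold.

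The SUM44 LTED-A samples of SREBF2 were at 258 and 179 CPM, far apart from each other and above every other sample of the series. SUM44F wells were at 75.3, 81.5 and 61.5 CPM, SUM44PE wells at 86.3, 94.2 and 95.1, and SUM44 LTED-B wells at 99.7, 107 and 103. It had a log2 fold change of 1.59 ± 0.15 in SUM44 LTED-A (3.00-fold, adjusted p = 1.40e-05) and 0.51 ± 0.14 in LTED-B (1.42-fold, adjusted p = 0.011). The 40 genes around SREBF2 on chromosome 22 had medians of 0.53 in SUM44 LTED-A and 0.24 in LTED-B on the same scale, and their part in the result was not tested. Around the other members the medians ran from -0.15 to 0.30 in LTED-A and from -0.26 to 0.21 in LTED-B, most of them above 0. In MM134 variants the neighbours of SREBF2 had medians between 0.05 and 0.07. The read counts of SREBF2 could include SREBF2-AS1, which overlaps it on the other strand, since the strand setting of the counting is not given in the sources used here.

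SCAP (ENSG00000114650, chr3:47413681-47477126, minus strand), the escort of both SREBPs, was higher in every MM134 variant by less than the minimum fold. Its parental wells were at 113, 112 and 111 CPM and its 12 LTED wells between 139 and 164, so the groups did not overlap. On the log2 scale the change ran from 0.37 ± 0.035 in LTED-A (adjusted p = 4.51e-08) to 0.54 ± 0.035 in LTED-E (adjusted p = 2.30e-10). In SUM44 cells it was at 58.3, 57.7 and 44.8 CPM in SUM44F wells, at 61.5 and 59.7 in LTED-A and at 64.3, 69.6 and 67.6 in LTED-B, with log2 fold changes of 0.18 ± 0.11 (adjusted p = 0.222) and 0.33 ± 0.095 (adjusted p = 0.0171).

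MBTPS1 (ENSG00000140943, chr16:84053761-84116942, minus strand), the site-1 protease that makes the first cut of the SREBP precursor, had the smallest differences. Its group means lay between 74.98 CPM in SUM44 LTED-A and 106 CPM in SUM44PE. Log2 fold changes in MM134 variants ran from -0.14 ± 0.030 in LTED-D (adjusted p = 0.000631) to 0.14 ± 0.029 in LTED-E (adjusted p = 0.000709). In SUM44 LTED-A, at 73.9 and 76.0 CPM against 96.6, 99.2 and 88.5 in SUM44F, it was -0.34 ± 0.073 (adjusted p = 0.00421), and in LTED-B 0.05 ± 0.064 (adjusted p = 0.577). MBTPS2, the site-2 protease, was not DE in any variant, with log2 fold changes between -0.02 and 0.55.

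INSIG1 (ENSG00000186480, chr7:155297776-155310235, plus strand), which retains SCAP in the endoplasmic reticulum, was higher in every MM134 variant and DE in LTED-A and LTED-E. Its parental wells were at 103, 98.2 and 105 CPM, its LTED-A wells at 157, 164 and 166, its LTED-B wells at 117, 118 and 123, its LTED-D wells at 147, 153 and 146, and its LTED-E wells at 205, 209.8 and 199. Every LTED well lay above the parental wells, with LTED-B nearest to them. INSIG1 had a log2 fold change of 1.02 ± 0.034 in LTED-E (2.02-fold, adjusted p = 8.94e-15), 0.67 ± 0.034 in LTED-A (1.59-fold, adjusted p = 4.06e-12), 0.56 ± 0.034 in LTED-D (1.47-fold, adjusted p = 8.66e-11) and 0.23 ± 0.034 in LTED-B (1.18-fold, adjusted p = 1.23e-05). In LTED-D the genes around INSIG1 had a median of 0.26, against values between -0.02 and 0.06 in the other MM134 variants.

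In SUM44 cells INSIG1 was at 157, 153 and 152 CPM in SUM44F wells, at 156 and 188 in LTED-A and at 172, 179 and 185 in LTED-B. LTED-A overlapped SUM44F and LTED-B did not. The log2 fold changes of 0.16 ± 0.089 (adjusted p = 0.187) and 0.22 ± 0.080 (adjusted p = 0.0492) lie beside medians of 0.30 and 0.18 for the neighbouring genes.

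INSIG2 (ENSG00000125629, chr2:118088452-118110997, plus strand), the second retention protein, differed between the SUM44 variants. It was at 20.3, 21.4 and 22.98 CPM in SUM44F wells. In LTED-A it was at 32.7 and 29.1 CPM, and in LTED-B at 15.1, 13.8 and 13.3. The variants thus lay on opposite sides of SUM44F without overlap. SUM44PE wells lay between 32.2 and 35.3 CPM and overlapped those of LTED-A. INSIG2 had a log2 fold change of 0.52 ± 0.097 in LTED-A (1.43-fold, adjusted p = 0.00168), which did not pass, and -0.62 ± 0.089 in LTED-B (1.53-fold lower, adjusted p = 0.000241), which did. The LTED-B call is close to the thresholds: it was lost without SUM44F replicate 2 (adjusted p = 0.00120) or replicate 3 (-0.57) and without LTED-B replicate 2 (adjusted p = 0.00228) or replicate 3 (-0.58), and with the scaling of DESeq2 (-0.58), and without SUM44F replicate 3 INSIG2 was called in LTED-A (0.59). In MM134 cells its group means lay between 13.5 CPM in LTED-E and 19.6 CPM in LTED-B, and its log2 fold changes between -0.19 and 0.34 were all under the minimum fold.

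Of the LXR genes, NR1H3 differed more between the cell lines than between parental and LTED cells, and NR1H2 did not. NR1H3 (ENSG00000025434, chr11:47248300-47269033, plus strand), which encodes LXR alpha, was at 2.92, 2.43 and 2.72 CPM in MM134 parental wells and between 3.16 and 4.32 CPM in MM134 LTED wells. Every MM134 LTED well was above the parental wells. On the log2 scale the change was 0.65 ± 0.11 in LTED-D (1.57-fold, adjusted p = 6.19e-05), 0.54 ± 0.11 in LTED-B, 0.51 ± 0.11 in LTED-A and 0.40 ± 0.11 in LTED-E, of which only the LTED-D value passed both thresholds. Without MM134 parental replicate 2 the LTED-D value was 0.58 and not called, and without parental replicate 1 or LTED-B replicate 3 the LTED-B value was 0.60 or 0.59 and called.

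In SUM44 cells NR1H3 was at 24.2, 23.5 and 24.6 CPM in SUM44PE wells, at 29.7, 29.8 and 23.1 in SUM44F, at 24.4 and 26.3 in LTED-A and at 47.2, 48.4 and 48.4 in LTED-B. LTED-B stood above all other wells, and the other 3 groups overlapped. The log2 fold change was 0.80 ± 0.097 in LTED-B (1.74-fold, adjusted p = 6.84e-05) and -0.11 ± 0.11 in LTED-A (adjusted p = 0.462). ACP2 overlaps NR1H3 on the other strand.

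NR1H2 (ENSG00000131408, chr19:50329653-50383388, plus strand), which encodes LXR beta, had group means between 21.0 CPM in SUM44PE and 40.7 CPM in MM134 LTED-B. It was at 31.9, 34.5 and 34.7 CPM in MM134 parental wells, at 39.5, 40.5 and 41.5 in LTED-A and at 39.1, 42.1 and 40.9 in LTED-B, which did not overlap the parental wells. The log2 fold changes were 0.26 ± 0.039 in LTED-A (adjusted p = 1.44e-05) and 0.28 ± 0.040 in LTED-B (adjusted p = 9.73e-06), below the minimum fold, and -0.01 ± 0.040 in LTED-D (adjusted p = 0.923) and 0.02 ± 0.040 in LTED-E (adjusted p = 0.668). In the SUM44 variants they were 0.24 ± 0.11 (adjusted p = 0.127) and 0.34 ± 0.10 (adjusted p = 0.0213). Its annotated span also covers NAPSB and NAPSA on the other strand.

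MYLIP (ENSG00000007944, chr6:16129086-16148248, plus strand) fell in both SUM44 variants. It was at 131, 135 and 124 CPM in SUM44F wells, at 53.4 and 59.7 in LTED-A, and at 37.6, 37.7 and 40.5 in LTED-B. These groups did not overlap, and SUM44PE, at 80.5, 79.7 and 78.4 CPM, lay between SUM44F and LTED-A. The log2 fold change was -1.20 ± 0.079 in LTED-A (2.29-fold lower, adjusted p = 1.09e-06) and -1.75 ± 0.070 in LTED-B (3.37-fold lower, adjusted p = 2.23e-08). The genes around MYLIP had medians of 0.10 and -0.26 in these comparisons.

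In MM134 cells MYLIP was at 31.0, 29.4 and 29.97 CPM in parental wells, at 40.9, 39.5 and 41.6 in LTED-A, at 35.2, 38.5 and 39.3 in LTED-B, at 31.1, 30.2 and 29.8 in LTED-D and at 44.2, 43.0 and 44.5 in LTED-E. LTED-D overlapped the parental wells and the other 3 variants lay above them. MYLIP had a log2 fold change of 0.55 ± 0.040 in LTED-E (adjusted p = 8.12e-10), 0.43 ± 0.039 in LTED-A (adjusted p = 2.44e-08), 0.33 ± 0.040 in LTED-B (adjusted p = 1.54e-06) and 0.02 ± 0.041 in LTED-D (adjusted p = 0.701), all under the minimum fold.

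MLXIPL (ENSG00000009950, chr7:73593194-73624543, minus strand), the glucose-responsive partner of MLX, was near the lower limit of detection, with group means from 1.29 CPM in SUM44 LTED-A to 3.28 CPM in SUM44 LTED-B. In MM134 variants its log2 fold change ran from -0.35 ± 0.14 in LTED-A (adjusted p = 0.044) to 0.08 ± 0.14 in LTED-E (adjusted p = 0.699). In SUM44 it was at 1.93, 2.05 and 2.44 CPM in SUM44F wells, at 1.48 and 1.10 in LTED-A and at 3.25, 3.34 and 3.27 in LTED-B, which do not overlap. The log2 fold changes of -0.75 ± 0.19 (adjusted p = 0.00993) and 0.61 ± 0.16 (adjusted p = 0.0107) were not called.

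The 4 MM134 variants, which were derived separately, differed among themselves in SREBF1, SREBF2 and INSIG1, called by an F-test over the 4 groups with an adjusted p under 0.001 and more than 1.5-fold between the highest and lowest variant. A call of this kind was made for 19.6% of all genes tested. SREBF1 differed by 0.92 on the log2 scale between LTED-A and LTED-D (1.89-fold, adjusted p = 1.80e-12), and INSIG1 by 0.78 between LTED-E and LTED-B (1.72-fold, adjusted p = 4.83e-12). SREBF2 differed by 0.59 between LTED-E and LTED-D (1.51-fold, adjusted p = 2.93e-09), just past the minimum fold, and by 0.56 without LTED-D replicate 2 and 0.57 without LTED-E replicate 1 or with the scaling of DESeq2, each of which ends the call. SREBF1 was thus highest in LTED-A while SREBF2 and INSIG1 were highest in LTED-E.

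The SUM44 variants differed from each other in 4 members, where 3.56% of all genes were higher in LTED-A and 3.86% were lower. SREBF2 was 2.11-fold higher in LTED-A (log2 difference 1.08 ± 0.15, adjusted p = 0.000396) and INSIG2 was 2.20-fold higher (1.14 ± 0.097, adjusted p = 1.47e-05). NR1H3 was 1.89-fold lower (-0.92 ± 0.11, adjusted p = 0.000164) and MLXIPL 2.57-fold lower (-1.36 ± 0.19, adjusted p = 0.000466). INSIG2 kept its call whichever sample was left out. SREBF2 and NR1H3 lost theirs without LTED-A replicate 1 (0.81 and -0.84) and when any 1 of the LTED-B replicates was left out, and MLXIPL lost its call when any 1 sample of either variant was left out, with values between -1.55 and -1.15. MYLIP, 0.55 ± 0.076 higher in LTED-A (1.47-fold), was called without LTED-A replicate 1 (0.65) and with LTED-A replicates 2 and 3 kept apart (0.60). SREBF1 did not pass (0.03 ± 0.11, adjusted p = 0.883).

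SUM44PE cells, the line from which SUM44F cells were made by a change of medium, also differed in 4 members, with 2.85% of all genes higher in SUM44PE and 2.72% lower. MYLIP was 1.65-fold lower (log2 difference -0.72 ± 0.063, adjusted p = 3.61e-06) and INSIG2 1.57-fold higher (0.65 ± 0.076, adjusted p = 4.10e-05). SREBF1 was 1.53-fold lower (-0.61 ± 0.092, adjusted p = 0.000327) and INSIG1 1.51-fold lower (-0.59 ± 0.077, adjusted p = 9.91e-05), both close to the minimum fold. Without SUM44F replicate 1 these 2 values were -0.55 and -0.58 and were not called, and SREBF1 was also lost without SUM44F replicate 2 (-0.56) or when any 1 SUM44PE replicate was left out, and INSIG1 without SUM44F replicate 3 (-0.57) or SUM44PE replicate 1 (-0.56) or 3 (-0.57). The 40 genes around NR1H2 had a median of -0.41 here, beside -0.46 ± 0.098 for NR1H2 itself (adjusted p = 0.00454).

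The mean change of the 4 MM134 variants was compared with that of the 2 SUM44 variants in a fit over all 9 groups, in which 10.9% of all genes had a DE difference above 0 and 10.1% one below 0. MYLIP was the 1 member called: its change was 1.80 ± 0.058 higher on the log2 scale in MM134 than in SUM44 (3.48-fold, adjusted p = 3.14e-18). For SREBF1 the difference was 0.09 ± 0.081 (adjusted p = 0.402). For SREBF2 it was -0.57 ± 0.11 (1.49-fold, adjusted p = 0.000157), just under the minimum fold, and it was called without MM134 parental replicate 2 (-0.60) or 3 (-0.64), SUM44F replicate 1 (-0.60) or 2 (-0.66), the merged SUM44 LTED-A sample (-0.72) or SUM44 LTED-B replicate 1 (-0.59), and with the scaling of DESeq2 (-0.61). The neighbours of SREBF2 had a median of -0.36 here. For INSIG1 it was 0.42 ± 0.063 (1.34-fold, adjusted p = 4.42e-06).

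Between the parental cells, where 19.1% of all genes were higher in MM134 and 19.0% lower, 1 member was higher and 3 were lower. SCAP was 2.10-fold higher in MM134 than in SUM44F (log2 difference 1.07 ± 0.066, adjusted p = 3.82e-13). NR1H3 was 10.2-fold lower, at 2.69 ± 0.246 against 27.5 ± 3.80 CPM (SD, n = 3 each, log2 difference -3.35 ± 0.10, adjusted p = 2.26e-19), and MYLIP was 4.31-fold lower, at 30.1 ± 0.834 against 129.98 ± 5.18 CPM (-2.11 ± 0.049, adjusted p = 1.65e-21). INSIG1 was 1.51-fold lower (-0.60 ± 0.053, adjusted p = 4.08e-10), and its call was lost without SUM44F replicate 1 (-0.58) or MM134 parental replicate 2 (-0.58), while INSIG2 was called without MM134 parental replicate 1 (-0.59). The neighbours of NR1H3 had a median of -1.19 and those of SCAP 0.57 in this comparison. Cell line and any difference in handling between the lines cannot be told apart.

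The change of each member was set beside that of the genes around it, taken as 20 tested genes on each side with at least 5 CPM (31 in all for INSIG1, near the end of its chromosome). For SREBF1 the neighbours had medians between -0.02 and 0.03 in the MM134 variants and of 0.13 in both SUM44 variants, far from its own values. The largest neighbour medians among the 6 LTED comparisons were 0.53 and 0.30 for SREBF2 and INSIG1 in SUM44 LTED-A and 0.28 for MLXIPL in MM134 LTED-D.

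**Figure D4:**
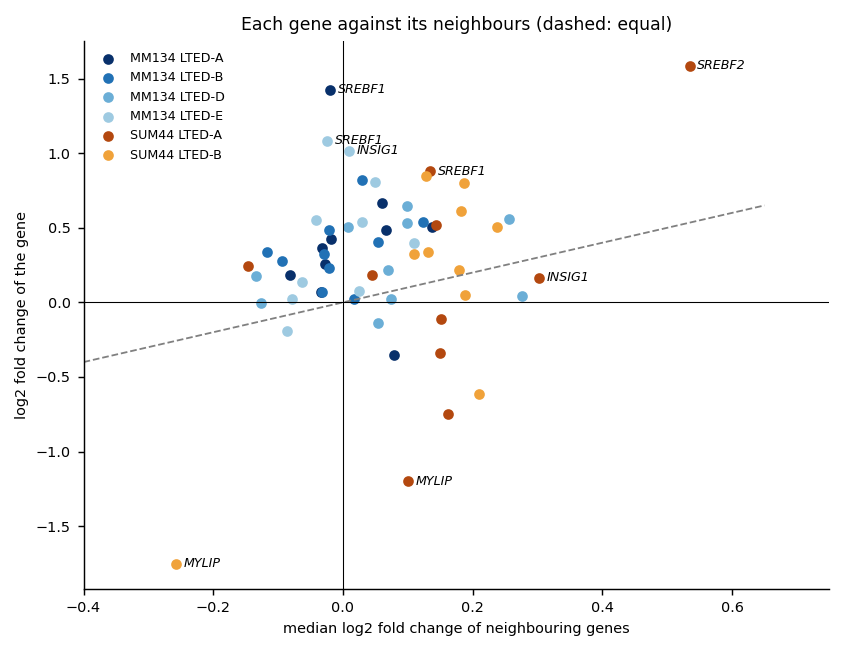
Log2 fold change of each of the 10 genes (vertical axis) against the median log2 fold change of the genes around it (horizontal axis) in the 6 LTED comparisons, 1 point a gene and comparison. The SREBF1 points lie between 0.51 and 1.42 with neighbours near 0, while SREBF2 in SUM44 LTED-A pairs 1.59 with a neighbour median of 0.53.

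The genes that these regulators act on or with were taken from 7 lists, set out below by role, and the plot of DE shares by list shows them beside all genes tested, of which 8.11% to 10.5% were higher and 7.75% to 10.3% lower in the MM134 variants, and 6.39% and 8.69% higher and 7.28% and 8.57% lower in the SUM44 variants. Of 22 tested genes of cholesterol synthesis and uptake, 8, 7, 8 and 17 were DE and higher in the A, B, D and E variants of MM134, and none was DE and lower. In SUM44 LTED-A 8 were higher and 1 was lower, and in LTED-B 6 were higher and 2 were lower. The median log2 fold change was 0.33, 0.28, 0.37 and 0.83 in the MM134 variants and 0.50 and 0.38 in the SUM44 variants. The count of higher genes in SUM44 LTED-B was 3 when any 1 of its own replicates was left out, and the count of lower genes in LTED-A was 0 without its replicate 1 and 2 without SUM44F replicate 3. In SUM44 LTED-A at most 7 were higher when any 1 SUM44F replicate was left out. Over samples left out, 6 to 8 were higher in MM134 LTED-B, and 17 were higher in MM134 LTED-E each time.

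STARD4, a sterol carrier, rose 6.19-, 5.63-, 6.35- and 12.2-fold in the 4 MM134 variants, from 2.20 CPM in the parental cells, and fell 2.06-fold in SUM44 LTED-B (log2 fold change -1.04 ± 0.13, adjusted p = 9.60e-05). DHCR7, which makes cholesterol from its last precursor, rose in all 6 variants, with log2 fold changes from 0.99 ± 0.058 in MM134 LTED-B to 1.78 ± 0.057 in MM134 LTED-E and of 1.35 ± 0.11 and 1.19 ± 0.10 in the SUM44 variants. TM7SF2, a sterol reductase, rose in MM134 LTED-B (0.61 ± 0.045) and fell in both SUM44 variants, by 0.82 ± 0.087 on the log2 scale in LTED-A and by 0.88 ± 0.077 in LTED-B, of which the LTED-A call was lost without its replicate 1 (-0.73, adjusted p = 0.00108).

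Of 15 genes of fatty acid synthesis, 6, 5, 6 and 7 were DE and higher and 4 were DE and lower in each of the MM134 variants. In SUM44, where 14 were tested, 5 were higher and 3 lower in LTED-A and 2 were higher and 3 lower in LTED-B. The medians were 0.49, 0.30, 0.49 and 0.38 in MM134 and 0.32 and 0.11 in SUM44. FASN, fatty acid synthase, rose from 366 CPM in MM134 parental cells to 3191 CPM in LTED-A (8.68-fold), 1413 in LTED-B, 1858 in LTED-D and 2186 in LTED-E. It rose 1.80-fold in SUM44 LTED-A and 2.28-fold in LTED-B, and the LTED-A call was lost without SUM44F replicate 1 (0.86, adjusted p = 0.00210), SUM44F replicate 2 (0.93, adjusted p = 0.00138) or LTED-A replicate 1 (0.69, adjusted p = 0.00312). SCD, which desaturates stearate, rose 5.46-, 2.41-, 2.40- and 7.94-fold in the MM134 variants and 2.26-fold in both SUM44 variants.

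The desaturases FADS1 and FADS2, which build polyunsaturated fatty acids and are classed as SREBP1 targets, went the other way in MM134 cells. FADS1 fell from 113 CPM to between 4.82 and 9.53 CPM in the MM134 variants, with log2 fold changes from -4.54 ± 0.065 to -3.55 ± 0.059. FADS2 fell from 259.97 CPM to between 7.54 and 12.9 CPM, with log2 fold changes from -5.12 ± 0.048 to -4.33 ± 0.047. In SUM44 LTED-A FADS1 rose 1.58-fold (0.66 ± 0.086, adjusted p = 0.000151), and its value was 0.57 and not called without the merged LTED-A sample. FADS2 was not called in either SUM44 variant (0.47 and 0.14).

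Of 12 LXR target genes 9 were tested. In MM134 2, 1, 2 and 1 were DE and higher and 1, 2, 0 and 2 lower in variants A, B, D and E, and in SUM44 0 were higher and 1 lower in LTED-A and 1 was higher and 2 lower in LTED-B. In a list of 9 genes a single call is already above the share over all genes, and the lower counts moved with single samples. In SUM44 LTED-B it was 1 without SUM44F replicate 1 or LTED-B replicate 3 and 0 without SUM44F replicate 2 or LTED-B replicate 1 or 2, in SUM44 LTED-A it was 0 without either of its samples and 2 without SUM44F replicate 3, and in MM134 LTED-A it was 0 without parental replicate 1 or LTED-A replicate 1. The list medians were all below 0, from -0.28 to -0.08 in MM134 and at -0.54 and -0.78 in SUM44. Over all genes tested the medians ran from -0.03 to 0.02 in MM134 and were -0.06 and -0.09 in SUM44. In MM134 LTED-B, LTED-D and LTED-E the list median was the value of APOE, which was below 1 CPM and not called. ABCA1, the cholesterol efflux pump, split the variants: it was at 6.94 CPM in MM134 parental cells, 20.5 in LTED-A, 19.96 in LTED-D, 4.65 in LTED-B and 0.476 in LTED-E, with log2 fold changes of 1.56 ± 0.060, 1.54 ± 0.061, -0.57 ± 0.069 and -3.85 ± 0.099. The MM134 LTED-E wells lay between 0.466 and 0.494 CPM.

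In SUM44F the ABCA1 wells were at 10.9, 3.13 and 2.84 CPM, the highest being replicate 1 with its fibroblast markers, and SUM44 LTED-A was at 0.321 and 0.438 CPM (-3.82 ± 0.61, adjusted p = 0.000615). Without SUM44F replicate 1 the log2 fold change was -2.91 (adjusted p = 3.77e-06). The call was lost when either LTED-A sample was left out (adjusted p = 0.0139 and 0.0136). SMPDL3A, a phosphodiesterase induced by LXRs, rose in all 4 MM134 variants, 2.79-, 1.68-, 2.06- and 2.63-fold, and fell 1.93-fold in SUM44 LTED-B, a call lost without SUM44F replicate 2 (adjusted p = 0.00102) or LTED-B replicate 1 (adjusted p = 0.00111) or 2 (adjusted p = 0.00124). APOE and PLTP were below 1 CPM in the group means of MM134 cells and were not called in any variant. APOE was at 7.07 CPM in SUM44F replicate 1 and at 0.488 and 0.345 CPM in the other SUM44F wells.

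The retinoid X receptors, with which LXRs pair, were not called in any variant by the fold thresholds. RXRA had group means between 71.7 and 145 CPM in the 6 variants and log2 fold changes between -0.26 and 0.07, and RXRB log2 fold changes between -0.41 and 0.15. RXRG passed the filter in SUM44 only, with group means between 0.128 and 0.255 CPM.

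Of 22 genes of SREBP escort, retention and turnover, 5, 1, 2 and 5 were DE and higher in the MM134 variants and 1, 1, 1 and 0 lower, and in SUM44 3 were higher in each variant and 0 and 2 lower. The 1 and 2 higher genes in MM134 LTED-B and LTED-D are under the 8.11% and 9.63% of all genes that were higher, and the single lower genes are under the share over all genes in each of those variants. The MM134 LTED-D count of higher genes was 1 without parental replicate 2 or LTED-D replicate 2. SEC24D, a coat protein of the vesicles that carry cargo from the endoplasmic reticulum, rose 3.39-fold in MM134 LTED-A, 1.80-fold in LTED-B, 2.62-fold in LTED-E, 2.43-fold in SUM44 LTED-A and 1.94-fold in SUM44 LTED-B, and its 0.49 ± 0.048 in MM134 LTED-D was under the minimum fold. SEC23B, of the same coat, rose 1.58-fold in MM134 LTED-A, 1.51-fold in LTED-E (0.57 and not called without MM134 parental replicate 2) and 1.66-fold in SUM44 LTED-B. FBXW7, the ubiquitin ligase subunit that marks nuclear SREBPs for degradation, fell 2.54-, 1.90- and 2.08-fold in MM134 LTED-A, LTED-B and LTED-D and 1.83-fold in SUM44 LTED-B (-0.87 ± 0.072, adjusted p = 4.61e-06). In MM134 LTED-E it was -0.54 ± 0.025, under the minimum fold, and in SUM44 LTED-A -0.08 ± 0.080 (adjusted p = 0.468). PGRMC1, an SCAP-binding protein, was not called, with log2 fold changes from -0.53 to 0.36.

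Of the lipoprotein receptors that MYLIP marks for degradation, LRP8 and VLDLR are given. LRP8 rose 2.70-fold in SUM44 LTED-A and 2.02-fold in LTED-B, and 1.51-fold in MM134 LTED-A and LTED-E. The LRP8 call in MM134 LTED-A was lost without parental replicate 1 (0.58) or LTED-A replicate 2 (0.58). VLDLR was not called in any variant (-0.35 to 0.96).

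Of 6 partners and targets of MLXIPL 5 were tested, and 1, 1, 1 and 0 were DE and higher and 1, 0, 1 and 1 lower in the MM134 variants, with 0 called in SUM44 LTED-A and 1 lower in LTED-B, which is ARRDC4. In a list of 5 genes a single call is likewise above the share over all genes. Without MM134 LTED-D replicate 2 the count of higher genes there was 2. TXNIP, a glucose-responsive regulator of glucose uptake, was at 260.1 CPM in MM134 parental cells, 119 in LTED-A, 284 in LTED-B, 0.398 in LTED-D and 112 in LTED-E. The LTED-D mean is near 0 with an SD of 0.348 CPM (n = 3), so its fold is imprecise. The log2 fold change was -9.38 ± 0.13 in LTED-D, and -10.39 without LTED-D replicate 2 and -8.85 without replicate 3, against -1.13 ± 0.063 in LTED-A and -1.20 ± 0.063 in LTED-E. ARRDC4, of the same arrestin family, rose 1.68-, 1.83- and 1.93-fold in MM134 LTED-A, LTED-B and LTED-D, and its fall in SUM44 LTED-B (-0.68 ± 0.12, adjusted p = 0.000821) was lost when any 1 sample was left out, with adjusted p up to 0.00655. MLX, the obligate partner of MLXIPL, was not called (0.10 to 0.53).

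**Figure D5:**
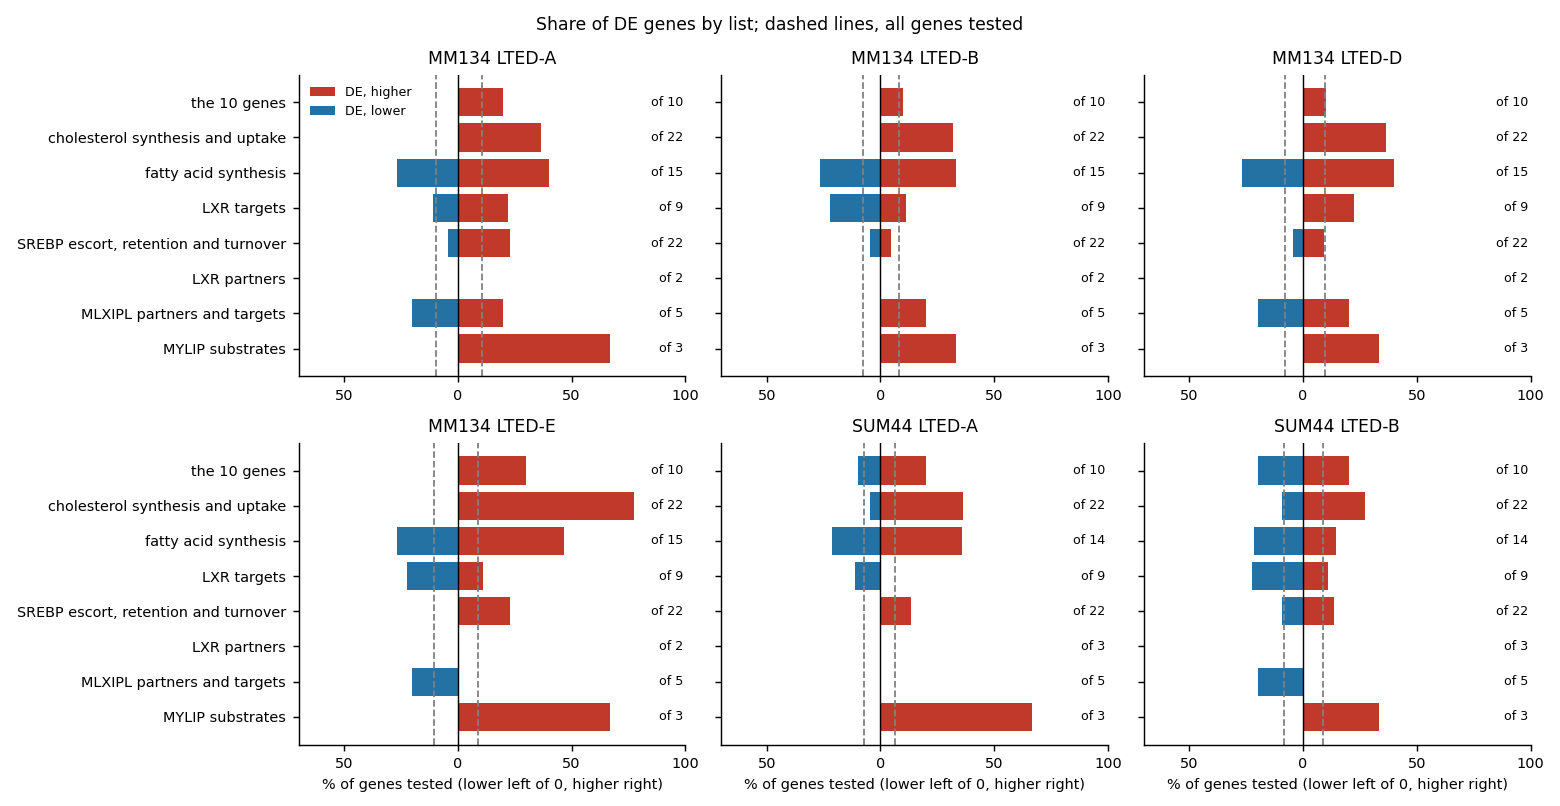
Share of the tested genes of each list that were DE and higher (red, to the right of 0) or DE and lower (blue, to the left), in percent, for the 6 LTED variants; dashed lines give the shares over all genes tested and the number on the right the genes tested. Called cholesterol genes are mostly higher, with 17 of 22 in MM134 LTED-E and 6 to 8 of 22 in the other variants, and fatty acid genes are called in both directions.

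The genes whose levels followed a member most closely over the 9 group means were ranked among 12155 genes by Pearson's r of log2(CPM + 1), centred within each cell line. For SREBF1 they were APEH (r = 0.98), NDUFS7 (r = 0.97) and TAF10 (r = 0.97). For SREBF2 they included SLC25A43 (r = 0.97) and SEC31A (r = 0.96), a coat protein of the vesicles that carry SCAP. For INSIG1 they included ERLIN1 (r = 0.96), which takes part in the degradation of HMG-CoA reductase, and SNX11 (r = 0.96), and for MYLIP TRIM22 (r = 0.97), CAB39 (r = 0.96) and PPP1R2 (r = 0.96). The 9 points, which share libraries and lines, give a description of the groups and no test. Of the 12 genes 11 stayed in the first 3 with a pseudocount of 0.1, SNX11 being the exception.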

How the data were processed

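Total RNA was sequenced from MM134 and SUM44 cells with a stranded kit. The authors quantified reads with Salmon 0.6.0 on hg38 (Ensembl release 82) and deposited estimated counts per gene, with no filter found in the file; the strand setting is not given in the sources used here. Estimated counts were rounded and tested with edgeR 4.0.16 (R 4.3.3; filterByExpr, TMM, quasi-likelihood F-test, with p-values adjusted by Benjamini-Hochberg over all genes tested): 26061 genes for MM134, 26834 for SUM44F and its variants, 27457 with SUM44PE and 29608 over all groups. DE meant a fold change above 1.5 and an adjusted p under 0.001. Levels are TMM-normalized CPM, and lengths and coordinates come from GENCODE 44, which holds 56434 of the row IDs. The tests were checked on simulated counts. Alternatives were DESeq2 1.42.0, RLE scaling, other filters, a replicate block, the unmerged SUM44 LTED-A replicates and leaving out each sample. All 10 genes were named, and of each list the 2 genes with the highest and the 2 with the lowest mean change (all of a list of 3, and MBTPS2). The members and lists were chosen with earlier results of these data known. Some genes that this rule names are not reported here.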

Additional observations from a re-analysis of the deposited data

Results flagged for a closer look

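MYLIP is listed because its change from parental to LTED cells differed between the cell lines by the test of the difference itself. Averaged over variants, the change was 1.80 ± 0.058 higher on the log2 scale in MM134 than in SUM44 (edgeR's quasi-likelihood test, adjusted p = 3.14e-18). All 5 SUM44 LTED samples lay below the SUM44F wells, and below the SUM44PE wells, which had a mean of 79.5 CPM. SUM44PE was itself 1.65-fold lower than SUM44F, and the LTED change was not tested against SUM44PE. In MM134 the wells of LTED-A, LTED-B and LTED-E lay above the parental wells, and LTED-D overlapped them. Every MM134 change was under the minimum fold, with log2 fold changes from 0.02 in LTED-D to 0.55 in LTED-E. Parental levels also differed, at 129.98 CPM in SUM44F and 30.1 CPM in MM134, and no cause was tested.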

How the results depend on the processing

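Of the values of the 10 genes recomputed under the alternatives, 1429 kept their direction and their side of the thresholds, 41 lost and 14 gained a call, and 26 changed sign, none of the last being past the minimum fold. The sign changes were NR1H2 in MM134 LTED-D (0.0015 with RLE scaling, 0.0013 with DESeq2; -0.045 to 0.019 over samples left out), NR1H2 in MM134 LTED-E (-0.016 to 0.049), SREBF1 between the SUM44 variants (-0.00018 with the replicate block; -0.0055 to 0.085), INSIG1 between them (0.0079 with LTED-A replicates 2 and 3 kept apart; -0.20 to 0.098), MBTPS1 between the parental lines (-0.10 to 0.00014), and MLXIPL in MM134 LTED-B (-0.071 to 0.13), LTED-D (-0.098 to 0.15), LTED-E (-0.014 to 0.18), between the parental lines (-0.0051 to 0.20) and in the difference between lines (-0.027 with RLE, -0.012 with DESeq2; -0.11 to 0.099). The cause was not tested.

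Counts of members called ran, over samples left out, from 1 to 2 in MM134 LTED-B, 0 to 1 in LTED-D, 1 to 3 between the SUM44 variants (all genes 1104 to 1806, against 1990), 2 to 3 between SUM44PE and SUM44F (against 4), and 1 to 2 in the difference between lines, where RLE and DESeq2 both gave 2. Other counts moved as well. Without SUM44F replicate 3, 3 members were higher in SUM44 LTED-A (against 2). In SUM44 LTED-B 1 member was lower (against 2) without replicate 2 or 3 of SUM44F or of LTED-B. Between the parental lines 2 to 4 members were lower (against 3), and the F-test among the MM134 variants called 2 to 3. With at least 10 counts in every sample, which tests fewer genes, the MLXIPL list had 4 calls over the 6 variants (against 7). Per kb of the longest transcript the means were 39.0 for SREBF1, 19.8 for SREBF2, 25.2 for SCAP, 51.4 for INSIG1, 5.76 for INSIG2, 21.4 for MBTPS1, 9.32 for NR1H2, 5.82 for NR1H3 and 0.703 for MLXIPL.

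Deviations of samples from their group means were correlated between groups. Samples with the same replicate number had a median r of -0.022 in MM134 and 0.052 in SUM44. For different numbers it was 0.011 and -0.019. Of the same-number correlations 7 of 30 in MM134 and 3 of 9 in SUM44 were over 0.1. These values do not settle whether replicate numbers pair the samples. With the replicate number as a block, 2 members were called between the SUM44 variants (against 4), the SUM44PE calls fell from 4 to 3, and FASN and FADS1 lost theirs in SUM44 LTED-A. Low counts limit MLXIPL and NR1H3 in MM134, and wells of 1 culture limit every p-value.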
